A study of Mus musculus with 6 samples.

Results

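Cholesterol and fatty acid synthesis was followed through 32 genes, chosen by name: 18 enzymes of the sterol branch, 9 enzymes of the fatty acid branch and 5 genes that control both branches or carry sterol. Of these, 31 were matched to a probe set, out of 18193 genes on the array, and Acat2 was not matched. All 31 entered every comparison, since each reached the floor of 63.7 signal units, the median of all values. The cells were melan-a, an immortal line of mouse melanocytes (pigment cells) that came from melanoblasts of C57BL/6 embryos. The kinase BRAF, which drives growth signals, was present in all 6 groups as delta-BRAF-ER, whose activity tamoxifen induces. One culture was left without activation (BRAF-off) and another had BRAF activated alone (BRAF-on). In the other 4, activation was combined with 1 added factor, ZEB2, SNAIL2, TWIST1 or ZEB1, which are transcription factors of embryonic development known as repressors of epithelial genes. The dose and time of tamoxifen, the promoters of the added genes and whether lines were clones were not stated in the sources used here. Each group had 1 array, so no difference was tested, no value has an error, and every ratio describes a pair of arrays.

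Cells build cholesterol from acetyl-CoA through mevalonate, isoprenoids, squalene and lanosterol, and build fatty acids from the same acetyl-CoA. Both branches are switched on by the SREBP transcription factors, which are made as membrane-bound precursors. The protein SCAP carries the precursors to the Golgi for cleavage when sterol is low, and INSIG proteins hold SCAP back when sterol is high. SREBP-2, from Srebf2, is known chiefly for the sterol branch, and the SREBP-1c form from Srebf1 for the fatty acid branch. In pigment cells, lipid synthesis supplies the membranes in which melanosomes form.

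The arrays had been scaled by the authors to a common level, with a mean of 500 after removal of the highest and lowest 2% of values. Signal 3' over 5' was 0.792 to 0.839 for the array's Gapdh controls and 1.36 to 1.54 for its Actb controls over the 6 arrays. Of the added factors, Zeb2 was higher on its own array than in BRAF-on, in all 5 of its probe sets but under 2-fold. Some of these probe sets, at 756 and 700 on the ZEB2 array, were higher still on the TWIST1 array, at 787 and 729. The rest were highest on the ZEB2 array. The other 3 labels were not borne out by their own transcripts. Snai2 was at 4175 in BRAF-on and 3142 on the array labelled SNAIL2, Zeb1 at 134 and 109 with ZEB1, Twist1 at 338 and 278 with TWIST1, and Zeb2 at 806 and 1132 with ZEB2. A dimmer Snai2 probe set was at 1157 in BRAF-on and 407 on the SNAIL2 array. The sources used here do not say whether the introduced sequences carry the parts these probe sets detect. Each array is therefore named below by its label only. Markers of melanocytes were present, with all 10 at or above the floor on at least 1 array. On the TWIST1 array their summed signal was 2408, against 67724 in BRAF-on, and the defining genes Dct, Tyrp1, Pmel, Mlana and Tyr were under the floor. Of 8 matched adipocyte markers 7 were under the floor on all 6 arrays, Adipoq, Pparg and Lpl among them, and so were 6 of 7 hepatocyte markers, Alb and Ttr among them. Fibroblast markers summed to 15951 on the TWIST1 array and to between 6710 and 8521 on the other arrays. Most of the TWIST1 sum came from Col1a1 (5485) and Col3a1 (8396). Of 6 measured, 5 were higher there than in BRAF-on (50.4% of all genes), and Col1a2 was lower (146 against 161). Of 7 macrophage markers 4 were under the floor on all arrays. The 3 measured were higher with ZEB1 than in BRAF-on (56.7% of all genes). In RNA from whole cultures, fewer cells of a type and less RNA per cell cannot be told apart.

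**Figure D1:**
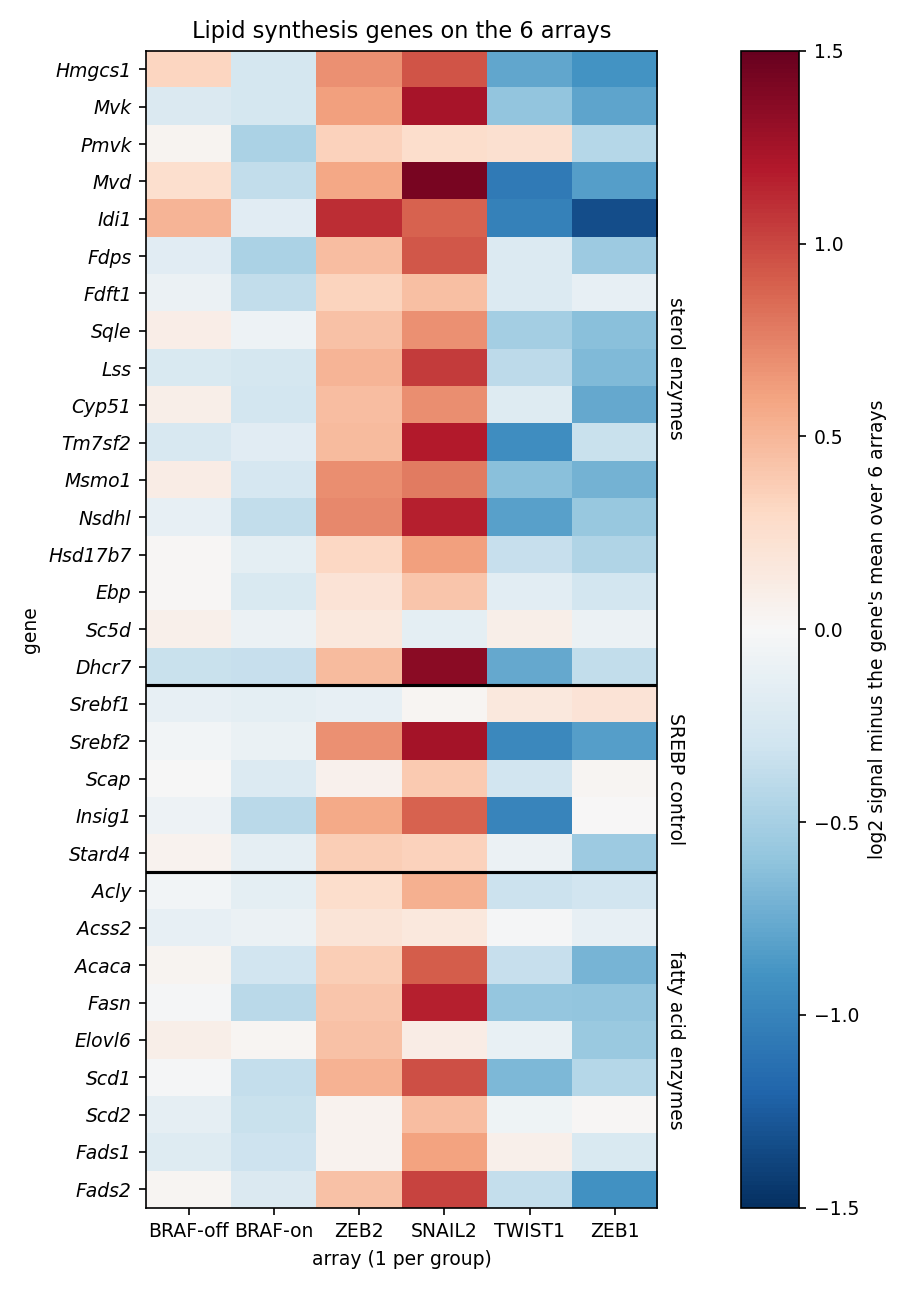
Log2 signal of each of the 31 genes on each of the 6 arrays, minus that gene's mean over the arrays (colour; red higher, blue lower), with sterol enzymes in pathway order, the SREBP control genes and fatty acid enzymes separated by lines. The ZEB2 and SNAIL2 columns are the highest for 28 of the 31 genes, and Sc5d, Srebf1 and Fads1 are the exceptions.

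The first comparison asked how the genes stood when BRAF was switched on. They were slightly lower in BRAF-on than in BRAF-off, and none was as much as 2-fold apart. Of the 31, 29 were lower (50.3% of all 11200 genes were lower), and the count of genes at least 2-fold lower was 0 (0.384% of all genes). Past 1.5-fold lower were 3 (2.39% of all genes), all at the start of the sterol branch: Idi1 with a log2 ratio of -0.67, Mvd with -0.62 and Hmgcs1 with -0.59. The median log2 ratio was -0.25 over 17 sterol enzymes, ranging from -0.67 to 0.07, and -0.19 over 9 fatty acid enzymes, ranging from -0.39 to 0.03. Over all genes it was -0.002. Tm7sf2 (0.07) and Acss2 (0.03) were the members not lower. Of 19 members with several measured probe sets, 9 had one of the opposite sign, so the direction is less firm than the count of 29. No array was labelled as given tamoxifen without activation of BRAF, so an effect of the drug and one of BRAF cannot be told apart. Melanocyte markers were lower too, 10 of 10 with a median of -0.68, and their part in the result was not tested.

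Sterol enzymes were higher on the ZEB2 array and higher again on the SNAIL2 array. Against BRAF-on, all 17 were higher on the ZEB2 array, with a median log2 ratio of 0.81 and a range of 0.24 to 1.27, and 2 were at least 2-fold higher. On the SNAIL2 array 16 of 17 were higher, with a median of 1.05 and a range of -0.06 to 1.79, and 10 were at least 2-fold higher. Among all 31 genes the count past 2-fold was 2 on the ZEB2 array (1.76% of 11322 genes) and 16 on the SNAIL2 array (5.61% of 11416). Past 1.5-fold these counts were 19 (6.01% of all genes) and 26 (17.3%). By direction alone all 31 were higher with ZEB2 (49.2% of all genes) and 30 with SNAIL2 (54.5%). Of 19 members with several measured probe sets, 5 had one of the opposite sign with ZEB2 and 4 with SNAIL2, none of them in a gene called 2-fold. The SNAIL2 array differed widely in other genes too, and the RNA added as poly-A controls read 2.55 times higher there than on BRAF-on (median over 24 probe sets).

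The steps from HMG-CoA to farnesyl pyrophosphate, shared by sterols and all other isoprenoids, had 6 genes measured, with median log2 ratios to BRAF-on of 0.94 with ZEB2 and 1.31 with SNAIL2. Hmgcs1, which encodes the synthase that makes HMG-CoA, was at a signal of 5774 in BRAF-off, 3841 in BRAF-on, 7402 with ZEB2, 8868 with SNAIL2, 2683 with TWIST1 and 2480 with ZEB1. The ZEB2 and SNAIL2 arrays lay above BRAF-off, and the TWIST1 and ZEB1 arrays below BRAF-on. Its log2 ratio to BRAF-on was 0.95 with ZEB2 and 1.21 with SNAIL2, and 3 other probe sets that were bright on all arrays gave 0.88 to 1.15 and 1.19 to 1.30. Mvk, the kinase that acts on mevalonate, was at 282, 272, 500, 771, 217 and 189 in the same order. Mvd, the decarboxylase that makes isopentenyl pyrophosphate, was at 467, 304, 584, 1052, 188 and 220. Both had their highest value on the SNAIL2 array, 2.83-fold and 3.47-fold above BRAF-on, the latter the largest ratio to BRAF-on of any member.

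Idi1 encodes the isomerase that follows, and differed in having its highest value with ZEB2. Its signal was 2022 in BRAF-off, 1268 in BRAF-on, 3058 with ZEB2, 2630 with SNAIL2, 706 with TWIST1 and 566 with ZEB1. With ZEB2 it stood 2.41-fold above BRAF-on, the largest member ratio on that array, and its second probe set gave a log2 ratio of 1.06. Fdps, the farnesyl pyrophosphate synthase gene, was at 3296, 2657, 5111, 7075, 3201 and 2525 in the same order, and only the ZEB2 and SNAIL2 arrays lay above BRAF-off. Pmvk, the phosphomevalonate kinase gene, had a narrow range (1.75-fold from lowest to highest) and was nearly as high with TWIST1 (752) as with SNAIL2 (768).

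Further down the branch, Fdft1 (squalene synthase), Sqle (squalene epoxidase) and Lss (lanosterol synthase) lead from farnesyl pyrophosphate to lanosterol. Lss was at 565 in BRAF-off, 552 in BRAF-on, 945 with ZEB2, 1376 with SNAIL2, 507 with TWIST1 and 418 with ZEB1, so BRAF-off and BRAF-on were close and SNAIL2 stood 2.49-fold above BRAF-on. Its other bright probe set gave a log2 ratio of 0.94 there, just short of 2-fold. Fdft1 and Sqle were also highest with SNAIL2, with log2 ratios of 0.83 and 0.77 against BRAF-on. The other bright probe set of Fdft1 was highest with ZEB2 (3608, against 2958 with SNAIL2) and gave 0.34 with SNAIL2.

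The 8 enzymes that turn lanosterol into cholesterol split by size of response. Dhcr7, which encodes a reductase of the last steps, was at 828 in BRAF-off, 822 in BRAF-on, 1454 with ZEB2, 2682 with SNAIL2, 617 with TWIST1 and 810 with ZEB1. Nsdhl, a dehydrogenase of the demethylation complex, was at 1304, 1095, 2334, 3177, 806 and 953, and Tm7sf2, a sterol reductase gene, at 268, 281, 437, 721, 166 and 250. In each of these 3 genes the ZEB2 and SNAIL2 arrays were the top values and the TWIST1 array the lowest. Msmo1, the sterol methyl oxidase gene, was at 3510, 2731, 5270, 5578, 2112 and 1989, nearly level between ZEB2 and SNAIL2. Cyp51, the lanosterol demethylase gene, was 1.97-fold above BRAF-on with SNAIL2, and Hsd17b7 and Ebp 1.69-fold and 1.56-fold. Sc5d, the desaturase gene, stood apart from its neighbours: its 6 signals lay between 2106 and 2591, and it was the 1 sterol enzyme lower with SNAIL2 than in BRAF-on, by a log2 ratio of -0.06.

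Sequence before the start site is shown for Hmgcs1, Idi1 and Mvd, the early enzymes at least 2-fold higher than BRAF-on with SNAIL2 and at least 2-fold lower than BRAF-off with TWIST1 and ZEB1, for Fasn and Srebf2, the members of the other groups with the largest ratios to BRAF-on, and for Sc5d, which hardly varied. Each is the 250 bases before the gene's start in RefSeq, build GRCm38.p6, on the gene's own strand, 5′ to 3′: Hmgcs1 chr13:119690101-119690350 (plus), Idi1 chr13:8885356-8885605 (plus), Mvd chr8:122443423-122443672 (minus), Fasn chr11:120824548-120824797 (minus), Srebf2 chr15:82147019-82147268 (plus) and Sc5d chr9:42264301-42264550 (minus). Capitals mark matches, on either strand, to 4 motifs: TCACNCCAC (core of a sterol regulatory element), CCAAT (the box bound by NF-Y, known to act beside SREBP), CACGTG (an E-box) and CACCTG (the E-box form bound by SNAIL and ZEB factors).
Hmgcs1: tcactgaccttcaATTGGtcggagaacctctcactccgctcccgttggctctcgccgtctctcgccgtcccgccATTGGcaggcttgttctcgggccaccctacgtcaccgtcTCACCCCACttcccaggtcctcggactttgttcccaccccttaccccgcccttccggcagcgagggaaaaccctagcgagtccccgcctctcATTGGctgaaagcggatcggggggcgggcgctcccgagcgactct
Idi1: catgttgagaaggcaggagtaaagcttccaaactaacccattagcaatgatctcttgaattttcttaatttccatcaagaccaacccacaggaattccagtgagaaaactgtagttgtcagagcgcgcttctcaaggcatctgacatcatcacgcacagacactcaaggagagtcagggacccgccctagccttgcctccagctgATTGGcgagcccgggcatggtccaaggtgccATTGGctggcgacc
Mvd: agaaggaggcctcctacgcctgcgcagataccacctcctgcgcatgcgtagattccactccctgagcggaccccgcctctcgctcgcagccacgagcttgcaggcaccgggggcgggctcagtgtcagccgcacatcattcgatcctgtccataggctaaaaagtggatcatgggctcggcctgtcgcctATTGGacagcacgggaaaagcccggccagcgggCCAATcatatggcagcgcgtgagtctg
Fasn: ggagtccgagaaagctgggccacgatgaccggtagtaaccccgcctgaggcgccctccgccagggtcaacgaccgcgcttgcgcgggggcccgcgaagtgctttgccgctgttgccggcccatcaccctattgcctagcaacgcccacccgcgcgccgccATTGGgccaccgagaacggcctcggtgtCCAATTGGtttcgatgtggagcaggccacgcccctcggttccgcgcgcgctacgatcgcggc
Srebf2: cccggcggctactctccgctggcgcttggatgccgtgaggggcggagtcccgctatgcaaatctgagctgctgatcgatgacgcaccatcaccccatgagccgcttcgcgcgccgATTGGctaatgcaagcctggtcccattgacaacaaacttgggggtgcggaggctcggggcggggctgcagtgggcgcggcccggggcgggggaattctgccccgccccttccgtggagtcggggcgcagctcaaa
Sc5d: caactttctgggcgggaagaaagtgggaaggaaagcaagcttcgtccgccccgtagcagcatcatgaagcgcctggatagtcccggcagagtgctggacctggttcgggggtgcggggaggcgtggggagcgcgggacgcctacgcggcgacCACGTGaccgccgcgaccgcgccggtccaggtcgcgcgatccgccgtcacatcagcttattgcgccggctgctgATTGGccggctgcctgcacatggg

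The CCAAT box was in all 6 sequences, 3 times in Hmgcs1 and in Fasn, where a pair of opposite matches overlap, and once in Srebf2 and Sc5d. Of the 32 members, 25 had an entry in the promoter table, and 19 of them (76.0%) held CCAAT, against 37.5% of all 27025 genes in it. By group it was in 14 of 15 sterol enzymes, 2 of 6 fatty acid enzymes and 3 of 4 control genes. The sterol element core was in 1 of 25, Hmgcs1, against 1.22% of all genes. CACGTG was in 5 of 25 (20%, against 6.86%): Dhcr7, Hsd17b7, Insig1, Sc5d and Scap. CACCTG was in 2 of 25 (8.0%, against 19.4%), Lss and Pmvk. How the motif matches relate to the signals was not tested. These matches describe letters in a short window, and binding was not measured.

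Of the 5 control genes, Srebf2 and Insig1 were at least 2-fold above BRAF-on with SNAIL2, and Srebf1 was nearly level over the arrays. Srebf2 was at a signal of 823 in BRAF-off, 789 in BRAF-on, 1363 with ZEB2, 2015 with SNAIL2, 433 with TWIST1 and 479 with ZEB1, a 4.65-fold range. The SNAIL2 array was 2.55-fold above BRAF-on, and TWIST1 and ZEB1 were the lowest arrays. Its second probe set had the same direction with ZEB2 (log2 ratio 0.72), SNAIL2 (1.12) and TWIST1 (-1.0), and the opposite one with ZEB1 (0.49 against -0.72), so the ZEB1 direction of Srebf2 is not settled. Srebf1 was at 1940, 1895, 1939, 2141, 2343 and 2432 in the same order. Its highest values were with TWIST1 and ZEB1, and the range was only 1.28-fold.

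Insig1, both a brake on SCAP and a known SREBP target, was at 2583 in BRAF-off, 2060 in BRAF-on, 4037 with ZEB2, 5012 with SNAIL2, 1370 with TWIST1 and 2716 with ZEB1. It was 1.96-fold above BRAF-on with ZEB2 and 2.43-fold with SNAIL2. TWIST1 and ZEB1 parted in this gene: the log2 ratio to BRAF-on was -0.59 with TWIST1 and 0.40 with ZEB1. Scap was at 2278, 1999, 2406, 3013, 1888 and 2349, highest with SNAIL2 at 1.51-fold above BRAF-on. Stard4, which encodes a carrier of sterol between membranes, was at 1242, 1097, 1547, 1525, 1130 and 826, with ZEB2 and SNAIL2 level and ZEB1 lowest. One of its other probe sets gave a log2 ratio of -0.11 with SNAIL2.

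**Figure D2:**
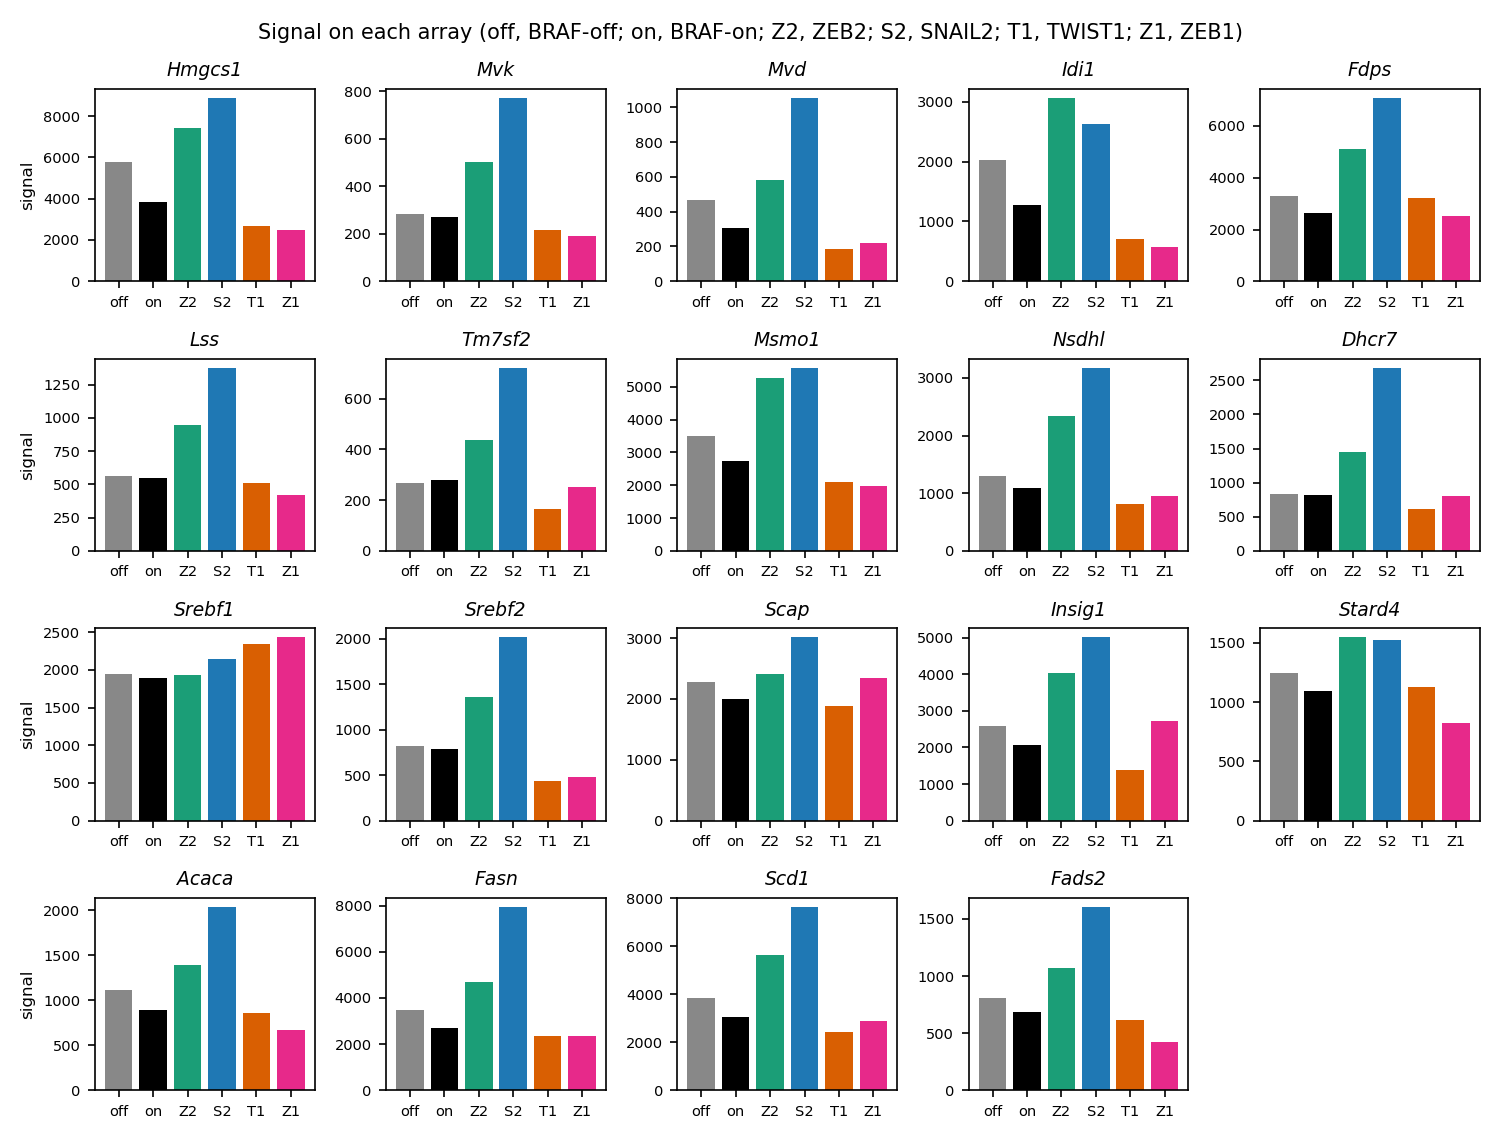
Signal (linear axis from 0, a separate scale in each panel) on each of the 6 arrays for the 19 genes that were at least 2-fold apart in a comparison or belong to the SREBP control group, 1 bar per array and no replicates. In most panels the ZEB2 and SNAIL2 bars stand above the other bars, while the bars of Srebf1 are nearly level between 1895 and 2432.

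Fatty acid enzymes were also higher with both factors, by less than sterol enzymes with ZEB2. By their brightest probe sets all 9 were higher than in BRAF-on. The median log2 ratio was 0.42 (range 0.28 to 0.88) on the ZEB2 array and 0.91 (range 0.08 to 1.57) on the SNAIL2 array. Among all genes 49.2% and 54.5% were higher. With ZEB2, a dimmer probe set went the other way in Fads1 (-0.37), Scd2 (-0.21), Acly (-0.007) and, near the floor, Elovl6 (-0.29). With SNAIL2 the dimmer ones of Elovl6 did (-0.18 and -0.29). The remaining probe sets measured on these arrays were higher. At least 2-fold higher were 0 with ZEB2 (1.76% of all genes) and 4 with SNAIL2 (5.61%). Fasn, the fatty acid synthase gene, was at 3498 in BRAF-off, 2676 in BRAF-on, 4701 with ZEB2, 7941 with SNAIL2, 2352 with TWIST1 and 2349 with ZEB1. It stood 2.97-fold above BRAF-on with SNAIL2, the largest ratio of this branch. Acaca, the carboxylase gene that supplies malonyl-CoA, was at 1116, 888, 1394, 2038, 856 and 669 in the same order, 2.30-fold above BRAF-on with SNAIL2. The difference in size between the branches was not tested.

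Of the desaturase genes, Scd1, Scd2 and Fads2 had SNAIL2 highest and ZEB2 next, while in Fads1 the TWIST1 array (6037) stood just above ZEB2 (5931). Scd1 was at 3860 in BRAF-off, 3061 in BRAF-on, 5633 with ZEB2, 7642 with SNAIL2, 2446 with TWIST1 and 2901 with ZEB1. Fads2, which starts the desaturation of polyunsaturated fatty acids, was at 807, 683, 1075, 1604, 618 and 422. SNAIL2 stood 2.50-fold and 2.35-fold above BRAF-on in these genes, and all measured probe sets of both had that direction. Scd2, the paralog of Scd1, and Fads1 were 1.73-fold and 1.88-fold above BRAF-on with SNAIL2, and both were higher than in BRAF-on on the TWIST1 array too, by log2 ratios of 0.26 and 0.38. The dimmer second probe set of Fads1 gave -0.05 there. Acly, which makes acetyl-CoA from citrate, was 1.60-fold higher with SNAIL2. Elovl6, the elongase of long saturated chains, had its highest value with ZEB2 (2130) and was at 1698 with SNAIL2, 1668 in BRAF-off and 1610 in BRAF-on. Acss2, which makes acetyl-CoA from acetate, lay between 174 and 217 on all 6 arrays.

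The genes were higher on the ZEB2 and SNAIL2 arrays than in BRAF-off as well, by less than against BRAF-on. Both references are set against the same factor arrays, so they are not independent. On the ZEB2 array 30 of 31 genes were higher (52.6% of all 11088 genes), none by 2-fold (1.02% of all genes) and 10 by 1.5-fold (4.83%). The sterol median was 0.42 and the fatty acid median 0.32. On the SNAIL2 array 30 of 31 were higher (57.8% of all 11149 genes), 9 by 2-fold (4.0%) and 20 by 1.5-fold (16.2%). These 9 were Dhcr7 (log2 ratio 1.70), Mvk (1.45), Tm7sf2 (1.43), Srebf2 (1.29), Lss (1.28), Nsdhl (1.28), Fasn (1.18), Mvd (1.17) and Fdps (1.1). Hmgcs1 and Idi1, both lower in BRAF-on than in BRAF-off, were not among them, with 0.62 and 0.38. A second bright probe set fell short of 2-fold in Lss (0.54), Mvk (0.84) and Srebf2 (0.92), but not in Mvd (1.27). Melanocyte markers differed the same way, 10 of 10 higher than BRAF-off on both arrays with medians of 0.51 and 0.95, and than BRAF-on with medians of 1.06 and 1.5. Their summed signal was 120354 with ZEB2 and 147678 with SNAIL2, against 93482 in BRAF-off, and their part in the result was not tested.

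On the TWIST1 and ZEB1 arrays most sterol enzymes stood below both references. Most fatty acid enzymes did too by their brightest probe sets, but some medians of that branch depended on the choice of probe set. The control genes were mixed. Against BRAF-on, 11 of 17 sterol enzymes were lower with TWIST1 and 15 with ZEB1. Of 9 fatty acid enzymes, 6 were lower with TWIST1 and 7 with ZEB1. The control genes had medians of -0.08 and 0.23. Against BRAF-on, 20 of 31 were lower with TWIST1 (49.6% of all 11334 genes) and 24 with ZEB1 (43.3% of all 11614). At least 2-fold lower were 0 with TWIST1 (2.02% of all genes) and 1 with ZEB1 (3.93%), Idi1 with a log2 ratio of -1.16. Past 1.5-fold lower were 5 with each factor (6.28% and 10.8% of all genes). Sterol medians were -0.32 with TWIST1 and -0.30 with ZEB1, and fatty acid medians -0.15 and -0.14. Neither 2-fold count was large beside the share of all genes. With TWIST1, 7 of 19 members with several measured probe sets had one of the opposite sign, and with ZEB1 6 did. Directions against BRAF-on are therefore less firm than these counts.

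Against BRAF-off, 25 of 31 were lower with TWIST1 (48.8% of all 11132 genes) and 27 with ZEB1 (43.4% of all 11508). Past 2-fold lower were 3 with TWIST1 (2.61% of all genes) and 3 with ZEB1 (5.20%), in both cases Idi1, Hmgcs1 and Mvd. Past 1.5-fold lower were 10 (7.22%) and 11 (12.9%). Idi1 was 2.86-fold lower with TWIST1 and 3.57-fold lower with ZEB1, the widest gap of any member. Hmgcs1 was 2.15-fold and 2.33-fold lower, and Mvd 2.48-fold and 2.12-fold. The brighter probe sets of these 3 genes all had that direction. Among the 19 members with several measured probe sets, 6 had one of the opposite sign with TWIST1 and 5 with ZEB1. Sterol medians were -0.38 and -0.46, and fatty acid medians -0.29 and -0.41. When a gene's probe sets were combined by their median in place of taking the brightest one, the fatty acid median with TWIST1 turned to 0.11 against BRAF-off and to 0.10 against BRAF-on. With ZEB1 it came to -0.01 against BRAF-off. The combined value takes in probe sets under the floor, as in Acly, whose bright probe sets gave -0.28, -0.20 and -0.29 with TWIST1 against BRAF-off. Measured probe sets of Fads2 other than the brightest gave 0.14 and 0.48 there. No direction is given for that branch on these arrays. Melanocyte markers were lower, with medians against BRAF-off of -6.17 with TWIST1 and -2.13 with ZEB1, and their part in the result was not tested.

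The TWIST1 and ZEB1 arrays were not alike in every step. Tm7sf2 was lower with TWIST1 (166 against 281) and close with ZEB1 (250). Dhcr7 was likewise lower with TWIST1 and level with ZEB1. Pmvk was 1.63-fold above BRAF-on with TWIST1 and level with ZEB1. In the fatty acid branch Elovl6 and Fads2 were lower than in BRAF-on with ZEB1, by log2 ratios of -0.59 and -0.70, and by -0.15 each with TWIST1. With TWIST1 the direction turned in other probe sets, at 0.06 for Elovl6 and 0.29 and 0.25 for Fads2, and with ZEB1 those of Fads2 gave -0.27 and -0.24.

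**Figure D3:**
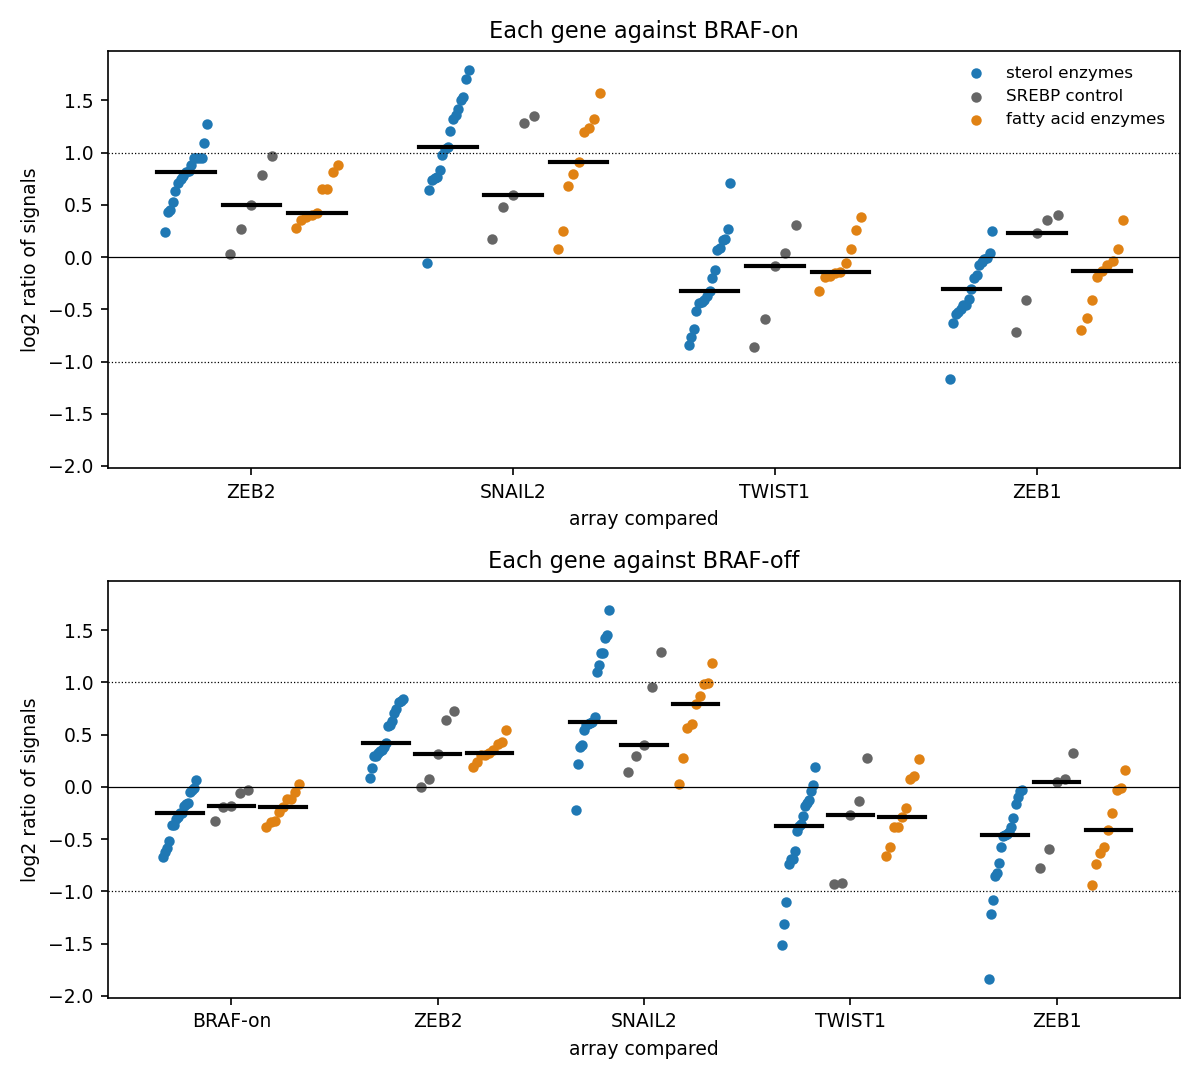
Log2 ratio of signals for each of the 31 genes (points) against BRAF-on (upper panel) and BRAF-off (lower panel), by branch, with the branch median as a bar and dotted lines at 2-fold. With SNAIL2 the sterol median is 1.05 against BRAF-on and 0.62 against BRAF-off, and the lowest point of all is Idi1 with ZEB1 against BRAF-off, at -1.84.

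Ranked over the 6 arrays, the SNAIL2 array was the highest for 24 of 31 genes (77.4%), against 32.5% of the 12040 genes at or above the floor on some array. The ZEB2 array was the highest for 6, and the ZEB1 array for Srebf1. Both the SNAIL2 and ZEB2 arrays lay above the other 4 in 28 of 31 genes (90.3%), against 16.8% of those 12040 genes and 18.4% of the 9081 genes at least as bright as the dimmest member. The TWIST1 and ZEB1 arrays lay below the other 4 in 18 of 31 (58.1%, against 14.8% and 16.4%). SNAIL2 was above ZEB2 in 25 of 31 genes (80.6%, against 55.6% and 56.5%), the exceptions being Pmvk, Idi1, Sc5d, Stard4, Elovl6 and Acss2. These orders were picked after the values were seen.

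Genes that stood highest with SNAIL2 also tended to do so with ZEB2 when the references did not overlap. Across the 31 members, the log2 ratios of SNAIL2 to BRAF-on and of ZEB2 to BRAF-off had a Pearson correlation of 0.73, against 0.40 across 10880 genes. With the references exchanged it was 0.56, against 0.51 across 10847 genes, so the members were then close to genes in general. TWIST1 to BRAF-on and ZEB1 to BRAF-off gave 0.48 (all genes 0.32), and the exchange gave 0.59 (0.43). These are correlations across genes, which are not independent replicates, and all arrays share 1 platform and scaling.

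Other genes of sterol handling varied unevenly. Of 10 matched genes that process SREBP or sense sterol, such as Mbtps1 and Insig2, none was 2-fold apart from BRAF-on with any factor, and the medians lay between 0.12 and 0.27. Among all genes 1.76% to 5.61% were at least 2-fold higher, depending on the factor, and 0.583% to 6.42% lower. A count of none in 10 genes is near those shares. By direction all 10 were higher than in BRAF-on with TWIST1 (50.4% of all genes). With ZEB2 7 were higher (49.2%), with SNAIL2 6 (54.5%) and with ZEB1 6 (56.7%). The largest ratios were Erlin2 with SNAIL2 (0.63), Sec23a with TWIST1 (0.58) and Sec24c with SNAIL2 (0.52). Of 9 matched genes of the isoprenoid branch, which leaves the sterol path at farnesyl pyrophosphate, 1 was past 2-fold with SNAIL2 (6.42% of all genes were 2-fold lower): Pggt1b, a subunit of the enzyme that attaches geranylgeranyl groups, was lower with SNAIL2 by a log2 ratio of -1.11 (863 in BRAF-on, 399 with SNAIL2). Dhdds, an enzyme of dolichol synthesis, was higher with ZEB2 (0.83) and SNAIL2 (0.71).

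By their medians, genes for sterol efflux, storage and lysosomal release were higher with ZEB2 and SNAIL2, as the enzymes were. They were also higher with ZEB1, where the enzymes were not. Of 11 measured, 5 were at least 2-fold higher with SNAIL2 (5.61% of all genes) and none with ZEB2 (1.76%), TWIST1 (2.03%) or ZEB1 (4.49%). The medians against BRAF-on were 0.58 with ZEB2, 0.93 with SNAIL2, 0.01 with TWIST1 and 0.51 with ZEB1, and all 11 were higher with ZEB1 (56.7% of all genes). Npc1, which moves cholesterol out of lysosomes, was at 904 in BRAF-off, 872 in BRAF-on, 1316 with ZEB2, 2252 with SNAIL2, 686 with TWIST1 and 1276 with ZEB1. Nceh1, a cholesteryl ester hydrolase gene, was 2.49-fold above BRAF-on with SNAIL2, and Lipa, the lysosomal acid lipase gene, 2.42-fold.

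**Figure D4:**
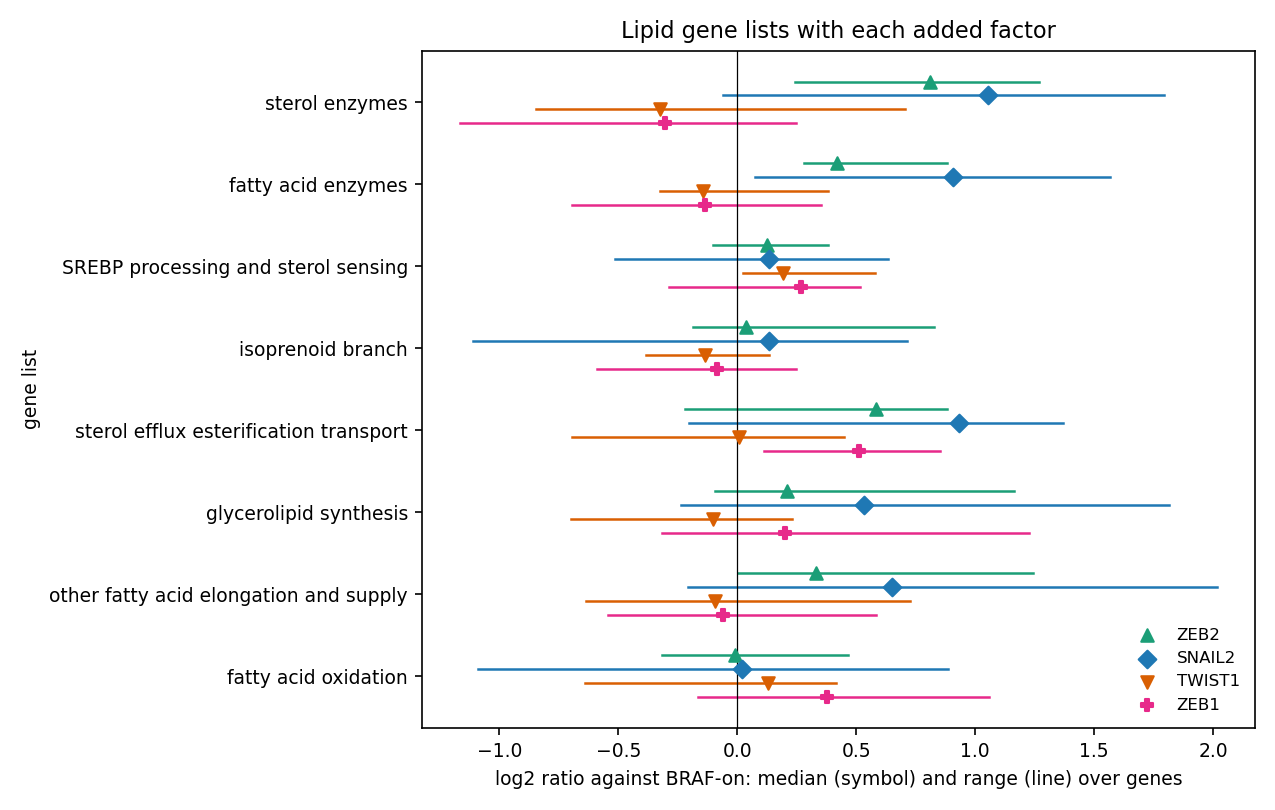
Log2 ratio to BRAF-on with each added factor, as the median (symbol) and the full range (line) over the measured genes of 8 lipid gene lists, with 1 array per group. Sterol enzymes have medians of 0.81 with ZEB2 and 1.05 with SNAIL2, while fatty acid oxidation genes have medians of -0.01 and 0.02 there and 0.38 with ZEB1.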

How the data were processed

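Total RNA of 6 samples, 1 per group, was amplified from the 3' end and read on 1-colour Affymetrix arrays, per the labels' protocols. The deposited intensity values are linear. The submitters' processing notes name MAS5 and Affymetrix Expression Console 1.1. MAS5 scales each array as a whole, so ratios are relative to that array's mean level.

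The arrays held 45101 probe sets, of which 64 were controls. The platform annotation paired 34945 with 1 gene symbol, updated through the Entrez number against RefSeq genes of GRCm38.p6. Where a gene had several probe sets, the one brightest on average (mean log2 signal) gave its value. Values under the floor (63.7, the median of all values without controls) were raised to it. Genes under the floor on both arrays of a comparison were left out of it. The rest were counted at 2-fold, with 1.5-fold added after seeing the data. With 1 array per group no test was possible, and the number of arrays limits the precision. Members, lists and markers were chosen with earlier results of these data known. Member genes at least 2-fold apart in any comparison, and all control genes, are given on every array. Of each other list the 3 largest ratios to BRAF-on are named, so a gene can appear for more than 1 factor. Other genes named beside these, and the orders of arrays, were chosen after their values were seen.

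Promoters came from a RefSeq table of build GRCm38.p6. The counting was tested on simulated data. Tools were Python 3.11.15, numpy 2.4.6, pandas 2.3.3, scipy 1.17.1 and matplotlib 3.10.9. Alternatives tried were the median over a gene's probe sets, quantile normalization, higher floors (60th and 75th percentile), none at all, adding the floor to every value, centring, dropping probe sets not specific to 1 transcript, and 3-fold.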

Additional observations from a re-analysis of the deposited data

Results flagged for a closer look

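The spiked poly-A controls, which were used in no comparison, read 2.55 times higher on the SNAIL2 array than on BRAF-on as the median over 24 probe sets, and higher on all 24. The corresponding ratio was 1.35 on the ZEB2 array, 1.42 on the ZEB1 array, 1.2 in BRAF-off and 0.880 on the TWIST1 array. Controls added at hybridisation read 1.2 times higher on the SNAIL2 array. How far this bears on the lipid genes of that array was not tested. With quantile normalization the sterol median with SNAIL2 against BRAF-off was 0.72, against 0.62 without it.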

How the results depend on the processing

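Of 144 branch medians under the alternatives, 133 stayed within 0.1 of the reported log2 value, 9 moved further and 2 changed sign. With a gene's probe sets combined by their median, the fatty acid median with TWIST1 changed sign to 0.11 against BRAF-off and 0.10 against BRAF-on, with ZEB1 against BRAF-off it was -0.0078, and with SNAIL2 it was 0.68 against BRAF-off and 0.81 against BRAF-on. The sterol medians against BRAF-on were then 0.94 with SNAIL2 and 0.70 with ZEB2. With the floor at the 75th percentile, the fatty acid medians against BRAF-on were 1.05 with SNAIL2 and 0.53 with ZEB2, and the sterol median with TWIST1 was -0.16, over the 8 fatty acid and 14 sterol enzymes that still entered. Quantile normalization gave a sterol median of 0.72 with SNAIL2 against BRAF-off. With probe sets combined by their median, the members at least 2-fold higher with ZEB2 against BRAF-on came to 4 and those lower to 1 (against BRAF-off 2). Those lower with ZEB1 against BRAF-off came to 5. That median takes in probe sets under the floor, such as one of Msmo1 at 36.3 in BRAF-on and 2.29 with ZEB2. The brightest probe set of Msmo1 was 1.93-fold higher with ZEB2. How far such probe sets account for these counts was not tested. With 3-fold as the size that counts, by construction fewer were left: 2 higher with SNAIL2 and 0 with ZEB2 against BRAF-on, 1 higher with SNAIL2 against BRAF-off, 0 lower with TWIST1 and 1 with ZEB1 against BRAF-off, and 0 lower with ZEB1 against BRAF-on. With 1.5-fold, chosen after seeing the data, against BRAF-on 26 were higher with SNAIL2, 19 with ZEB2 and 1 with TWIST1, and 5 were lower with TWIST1 and 5 with ZEB1. Against BRAF-off 20 were higher with SNAIL2 and 10 with ZEB2, and 10 were lower with TWIST1, 11 with ZEB1 and 3 in BRAF-on. No paired analysis was possible because each group had 1 array.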

Other observations

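Outside the synthesis enzymes, genes that build glycerolipids were higher with SNAIL2: of 14 measured, 12 were higher than in BRAF-on, with a median log2 ratio of 0.53, and 3 were at least 2-fold higher. Among all genes 54.5% were higher and 5.61% at least 2-fold, with a median of 0.06. Lpin1, which makes the diacylglycerol used for triglycerides, was at a signal of 416 in BRAF-off, 296 in BRAF-on, 638 with ZEB2, 1042 with SNAIL2, 347 with TWIST1 and 692 with ZEB1. It thus stood 3.52-fold above BRAF-on with SNAIL2 and 2.34-fold with ZEB1, where Idi1 and Hmgcs1 were lower. Ptdss1, a phosphatidylserine synthase gene, was 2.48-fold higher with SNAIL2 and level on the TWIST1 and ZEB1 arrays. Of 15 measured genes of fatty acid elongation and supply, all 15 were higher with ZEB2 (median 0.33; 49.2% of all genes) and 12 with SNAIL2 (median 0.65; 54.5%). Elovl7, an elongase gene, was at 632 in BRAF-off, 268 in BRAF-on, 634 with ZEB2, 1085 with SNAIL2, 443 with TWIST1 and 275 with ZEB1, so that BRAF-off and ZEB2 were level. Acacb, the second acetyl-CoA carboxylase gene, was 2.42-fold above BRAF-on with SNAIL2.

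Fatty acid oxidation genes followed another pattern. Of 19 measured, 16 were higher with ZEB1 than in BRAF-on (56.7% of all genes), with a median of 0.38 (0.07 over all genes), against medians of -0.01 with ZEB2, 0.02 with SNAIL2 and 0.13 with TWIST1. Cpt1c, of the carnitine palmitoyltransferase family, was 2.08-fold higher with ZEB1 and Acaa2, a thiolase gene, 1.85-fold. Etfa, a subunit of the electron transfer flavoprotein, was at 4325 in BRAF-on and 2032 with SNAIL2, and between 3562 and 4669 on the other arrays.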
